A study of Zea mays with 303 samples.

Results

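The transcripts of 5 nuclear genes for chloroplast photosynthesis proteins, CAB1, RBCS, PSAH, PSBQ1 and RCA1, were followed through single cells of early meiotic maize anthers. The genes were taken by name from a table of 17140 features, and all 5 were detected. Together they held 1510 unique molecular identifiers (UMIs, each marking 1 captured transcript copy), or 0.189% of the 800166 UMIs counted. All cells came from anthers of the inbred line W23 carrying bz2, grown in a greenhouse, and formed 1 group with no treatment and no named plant or culture. Anthers were fixed in Farmer's solution, digested with wall-degrading enzymes and sorted as single cells, and each cell was barcoded and sequenced in 1 of 4 library pools. Pools 6, 11, 28 and 29 held 55, 78, 79 and 91 cells. The labels give no difference between the pools other than the index, and no cell type. Cells are not replicates, so no test was run and no p-value is given, and intervals are exact 95% intervals that cover counting error only.

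These genes sit in the nucleus, and their proteins are made in the cytosol and imported into chloroplasts. There they work with partners encoded by the plastid's own genome. CAB1 encodes a chlorophyll a/b-binding protein, which gathers light. PSAH and PSBQ1 encode small subunits of photosystem I and of the oxygen-evolving side of photosystem II. RBCS encodes the small subunit of Rubisco, the enzyme that fixes carbon dioxide, and RCA1 encodes Rubisco activase, which keeps Rubisco in its active form. Anthers are mostly non-green, but cells of the endothecium, the wall layer below the epidermis, are known to carry chloroplasts.

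A cell held a median of 1780 UMIs, the deepest 9934, and the pool medians were 2942, 2803, 1162 and 1746 UMIs in pools 6, 11, 28 and 29. Of 96 barcode numbers, 91 occurred in at least 2 pools, and no 2 cells had identical counts. Markers of other anther cells could hardly be read: by symbol, 1 of 9 meiocyte markers (RAD51B, 6 UMIs), 0 of 8 tapetum markers and 1 of 3 epidermis markers (CR4, 12 UMIs) were matched. The labelled tissue was therefore not checked by markers of its cell types.

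CAB1 had the most UMIs of the 5 genes, with 900, and ranked 53rd of all features. It stood at 1125 UMIs per 1000000 (CPM; interval 1052 to 1201) over all cells. Pool 6 stood at 480.1 CPM (387 to 588), pool 11 at 868 CPM (760 to 988), pool 28 at 1445 CPM (1238 to 1678) and pool 29 at 1821 CPM (1647 to 2007). The pool 28 and 29 intervals overlapped slightly, and those of pools 6 and 11 lay below both and apart from each other. A CAB1 UMI was seen in 40.3% of cells. A cell's count reached 60, and the 10 cells with the most CAB1 held 34.4% of its UMIs. Within pools 6, 11, 28 and 29 the 10 cells with the most CAB1 held 93.5%, 67.8%, 67.1% and 71.8% of the pool's CAB1 UMIs. The intervals leave out this spread between cells. Cells with a CAB1 UMI had a median depth of 3121 UMIs, against 1305 UMIs in cells without, so a count of 0 in a shallow cell says little.

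The carbon-fixation genes were less abundant. RBCS was seen in 77 cells, with at most 19 UMIs in 1 cell, and stood at 364 CPM (323 to 408). Pool 6 stood at 149.7 CPM, pool 11 at 321 CPM (256.3 to 397), pool 28 at 300.8 CPM (210.7 to 416) and pool 29 at 635 CPM (535 to 749). Pool 29 lay above the others in RBCS, pools 11 and 28 overlapped, and the interval of pool 6 lay below that of pool 11 and met the lower end of that of pool 28. The gene table holds 2 maize genes under the name rbcS, and which of these the row counts was not settled here. RCA1 had 11 UMIs in 10 cells, with 2, 2 and 7 UMIs in pools 11, 28 and 29. In pool 6 it had no UMI, which allows a level of up to 15.5 CPM (3 counts of the pool's total), so no order of the pools can be read for RCA1.

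The photosystem subunit genes gave the same order of pool levels as CAB1, with wider intervals. PSBQ1 had 210 UMIs in 81 cells and stood at 113.6 CPM (71.2 to 171.9), 158.6 CPM (114.3 to 214.3), 368 CPM (267.1 to 494) and 459.7 CPM (375 to 558) in pools 6, 11, 28 and 29. PSAH had 98 UMIs in 54 cells and stood at 51.6 CPM (24.8 to 94.9), 60.4 CPM (34.5 to 98.1), 150.4 CPM (89.1 to 237.7) and 243.4 CPM (182.8 to 318) in the same pools. For both genes the intervals of pools 6 and 11 overlapped, as did those of pools 28 and 29. The ratio of the highest to the lowest pool was 3.74 for CAB1, 4.04 for RBCS, 4.11 for PSAH and 3.80 for PSBQ1, with 10 CPM added to both levels. A pool ratio of at least 2 was common, at 42.1% of the 3171 features with at least 50 UMIs, and from 8.10% to 9.65% of features had a ratio as large as one of these 4 genes. RCA1 fell below that limit of 50 UMIs. With each cell thinned at random to 1000 UMIs, and shallower cells left out, CAB1 was seen in 21.4% (10.3% to 36.8%), 41.5% (29.4% to 54.4%), 39.5% (25.0% to 55.6%) and 39.4% (27.6% to 52.2%) of the cells of pools 6, 11, 28 and 29. A cell with CAB1 held on average 1.89, 1.89, 5.29 and 3.69 of its UMIs in the same pools. Pools 11, 28 and 29 had overlapping shares of cells with CAB1, while the count per such cell was lower in pool 11 than in pools 28 and 29. What set the pools apart was not tested.

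**Figure D1:**
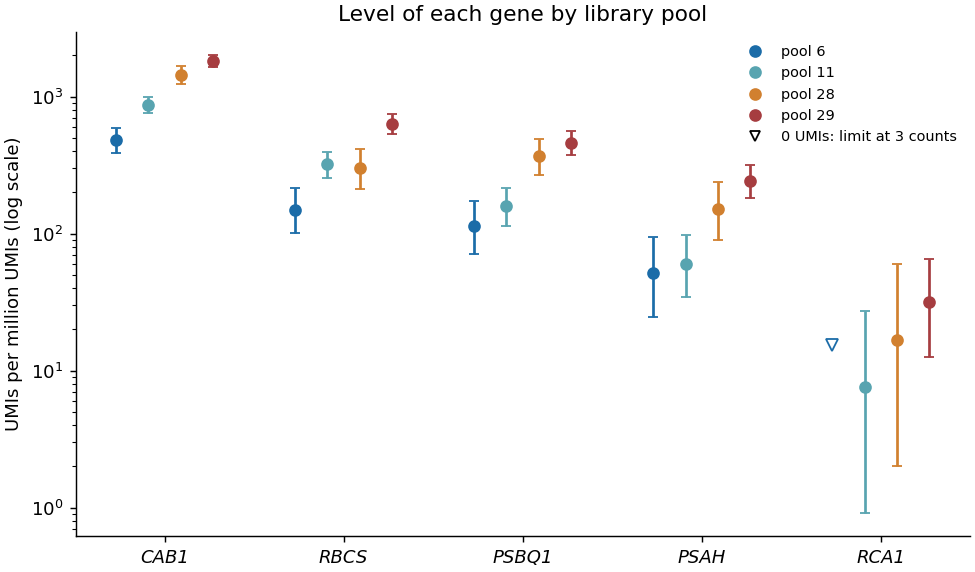
Level of each of the 5 genes in CPM (log axis) in pools 6, 11, 28 and 29, with exact 95% Poisson intervals that cover counting error only; the open triangle is the limit set by 3 counts where no UMI was seen. CAB1, RBCS, PSBQ1 and PSAH have their highest level in pool 29, and CAB1 is at 1821 CPM there and 480.1 CPM in pool 6.

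The proportions of the genes to one another were also set side by side for the pools. Per 100 CAB1 UMIs there were 31.2 (19.8 to 47.8), 37.0 (28.5 to 47.6), 20.8 (14.1 to 29.9) and 34.9 (28.6 to 42.4) UMIs of RBCS in pools 6, 11, 28 and 29. PSBQ1 had 23.7, 18.3, 25.4 and 25.2 UMIs per 100 of CAB1 in these pools, and PSAH had 10.8, 6.96, 10.4 and 13.4. The intervals of every pair of pools overlapped for each of the 3 genes, which does not show that the ratios are equal. For RBCS the interval of pool 28 only just met those of pools 11 and 29. The lowest RBCS ratio, in pool 28, rested on 36 RBCS UMIs.

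The 5 genes occurred together in the same cells. Of the 77 cells with an RBCS UMI, 71 also had a CAB1 UMI (92.2%, interval 83.8% to 97.1%), against 51 of the cells without RBCS (22.6%, 17.3% to 28.6%). For PSAH, 50 of 54 cells with a UMI also had CAB1 (92.6%), against 72 of the cells without PSAH (28.9%). Of the cells with PSBQ1, 70 of 81 had CAB1 (86.4%), against 52 of the cells without PSBQ1 (23.4%). All 10 cells with an RCA1 UMI had CAB1, and 8, 7 and 7 of them had RBCS, PSAH and PSBQ1. The share of RBCS cells with CAB1 was 100% (8 of 8), 87.0% (20 of 23), 93.8% (15 of 16) and 93.3% (28 of 30) in pools 6, 11, 28 and 29, against 14.9%, 30.9%, 23.8% and 19.7% of the cells without RBCS.

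Pairs that leave CAB1 out showed the same. The photosystem genes PSAH and PSBQ1 were found together in 44 cells, which is 81.5% of the cells with PSAH and 54.3% of those with PSBQ1. PSBQ1 was seen in 37 of the cells without PSAH (14.9%). A PSAH cell also had RBCS in 44 of 54 cases (81.5%), against 33 of the cells without PSAH (13.3%). Genes of light capture and of carbon fixation were thus found in the same cells, at the counts given.

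Depth favours joint detection, because a deep cell shows more of every gene, so each cell was also thinned at random to 1000 UMIs. This kept 42, 65, 43 and 66 cells of pools 6, 11, 28 and 29, and left out 13, 13, 36 and 25. Among thinned cells CAB1 was seen in 33 of 36 cells with RBCS (91.7%, 77.5% to 98.2%), against 46 of 180 cells without RBCS (25.6%, 19.4% to 32.6%). For PSBQ1 the shares with CAB1 were 72.5% of cells with PSBQ1, against 28.4% of cells without. The share for PSAH was 81.8% of 22 cells with it, against 31.4% of the cells without it. RCA1 was left in 4 thinned cells, of which 3 had CAB1. For pairs without CAB1 the shares after thinning were lower than before it. PSAH was found in 32.5% of PSBQ1 cells (18.6% to 49.1%; 54.3% before thinning), against 5.11% of cells without PSBQ1. RBCS was found in 54.5% of PSAH cells (32.2% to 75.6%; 81.5% before thinning), against 12.4% of cells without PSAH.

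**Figure D2:**
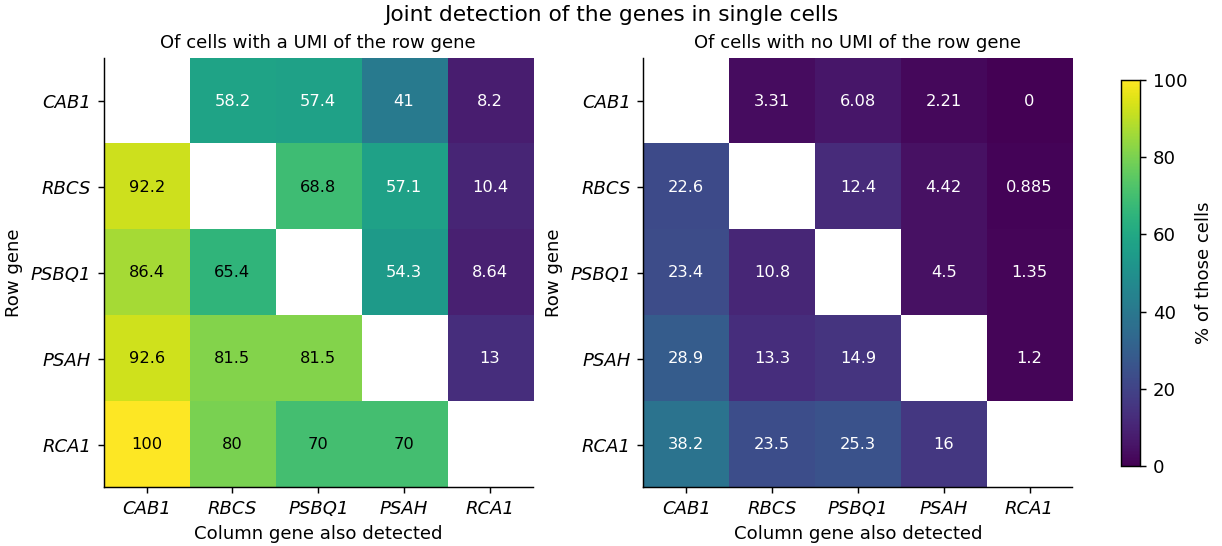
Percentage of cells in which the column gene was detected (at least 1 UMI), among cells with a UMI of the row gene (left) and among cells with no UMI of it (right), over all cells before thinning. Among RBCS cells 92.2% had CAB1, and among cells without RBCS 22.6% did.

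Counting genes per cell, 54.1% of cells had none of the 5, while 43 cells had 1, 31 had 2, 27 had 3, 32 had 4 and 6 had all 5. The 65 cells with at least 3 of the genes were 21.5% of the cells and held 33.5% of all UMIs and 86.5% of the UMIs of the 5 genes. These cells were picked by counts of the same genes, so a high share follows in part from the choice. They made up 14.5%, 20.5%, 21.5% and 26.4% of the cells of pools 6, 11, 28 and 29. The 6 cells with all 5 genes lay in pool 28 (2 cells) and pool 29 (4 cells), and RCA1 had 2 and 7 UMIs in these pools.

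Single cells show how the counts add up. The cell with barcode 9 of pool 29 had 60 UMIs of CAB1, 15 of RBCS, 13 of PSAH and 13 of PSBQ1 among 9701 UMIs, the highest count of CAB1, PSAH and PSBQ1 in any cell. Barcode 38 of pool 28 was far shallower, with 1761 UMIs, but had 21, 4, 2 and 4 UMIs of these genes and 1 of RCA1. That cell had the highest summed level among cells with at least 1000 UMIs, at 18454 CPM of non-plastid UMIs. In the 31 cells with at least 10 CAB1 UMIs, RBCS was seen in 30, PSBQ1 in 29, PSAH in 25 and RCA1 in 6. The exception for RBCS was barcode 4 of pool 29, with 13 CAB1 and 3 PSBQ1 UMIs but no RBCS among 1844 UMIs. Conversely, 17 cells had another of the genes but no CAB1, and none of these had more than 1 UMI of RBCS or PSAH or more than 2 of PSBQ1.

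The plastid-encoded share of each cell, the percentage of its UMIs from 23 genes of the plastid genome, was set beside these levels. Of these genes, 12 form a photosynthesis list that includes the envelope protein gene cemA, and 11 form a plastid gene expression list that includes the protease gene clpP. How well plastid transcripts were captured relative to nuclear ones was not measured. The share had a median of 1.28% and ran from 0% to 15.8%, with pool medians of 1.47%, 1.66%, 0.969% and 1.12% in pools 6, 11, 28 and 29. Levels of the nuclear genes are given from here in CPM of the UMIs without these 23 genes, called non-plastid UMIs. A large share of the 23 genes thus does not by itself lower them. The plastid-encoded rps3 and ycf70, and any plastid gene without a symbol, stayed in these UMIs. Cells were ranked by the share within each pool and divided into 4 bins of near-equal size, from bin 1 with the lowest share to bin 4, the top bin.

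The nuclear genes were higher in cells with a higher plastid share, and most of the difference lay in the top bin. In bins 1 to 4 CAB1 stood at 82.1 (46.9 to 133.3), 275.9 (207.9 to 359), 527 (423 to 649) and 3419 CPM (3177 to 3674). The top bin of 77 cells held 741 of the 900 CAB1 UMIs (82.3%) and 27.9% of all non-plastid UMIs. Against the other cells, at 283.3 CPM, CAB1 had a log2 fold of 3.55 with 10 CPM added to both sides, and of 4.35, 2.94, 3.42 and 4.12 within pools 6, 11, 28 and 29. Median depth was 1844 UMIs in the top bin and 1769 UMIs in the other cells.

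Over all pools RBCS was higher in each bin than in the one below, with 35.9 (14.4 to 74.0), 75.3 (42.1 to 124.1), 221.5 and 1070.4 CPM. Bins 1 and 2 had only 7 and 15 UMIs and overlapped, and within pools 6 and 28 bin 2 was not above bin 1. The log2 fold of RBCS in the top bin was 3.23 (1070.4 against 105.1 CPM), and 2.99 to 4.78 within the pools. PSBQ1 had 743 CPM in the top bin against 87.3 CPM elsewhere, a log2 fold of 2.95 (2.54 to 5.27 within the pools). PSAH stood at 351 CPM in the top bin against 39.2 CPM elsewhere, a log2 fold of 2.87 (2.44 to 4.18). In pool 6 all 22 PSBQ1 UMIs and all 10 PSAH UMIs fell in the 14 cells of the top bin. RCA1 had 7 UMIs in the top bin and 4 in the other cells. With so few counts it was higher in the top bin of pools 28 and 29, lower in that of pool 11 and not seen in pool 6.

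All 4 genes with at least 50 UMIs were more than 2-fold higher in the top bin. Of 3146 features, these 4 genes included, 6.87% were at least 2-fold higher. The 3146 are the features left once those known by symbol as plastid-encoded were set aside. Features without a symbol were not sorted by genome, so plastid genes can remain among them. The median log2 fold of the 4 genes was 3.09, while the median of those 3146 features was -0.68. With the 20 most abundant features left out of the scaling the median of all features was -0.40. A fold as large as that of CAB1 was reached by 0.191% of the features, and one as large as that of PSAH by 1.72%.

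**Figure D3:**
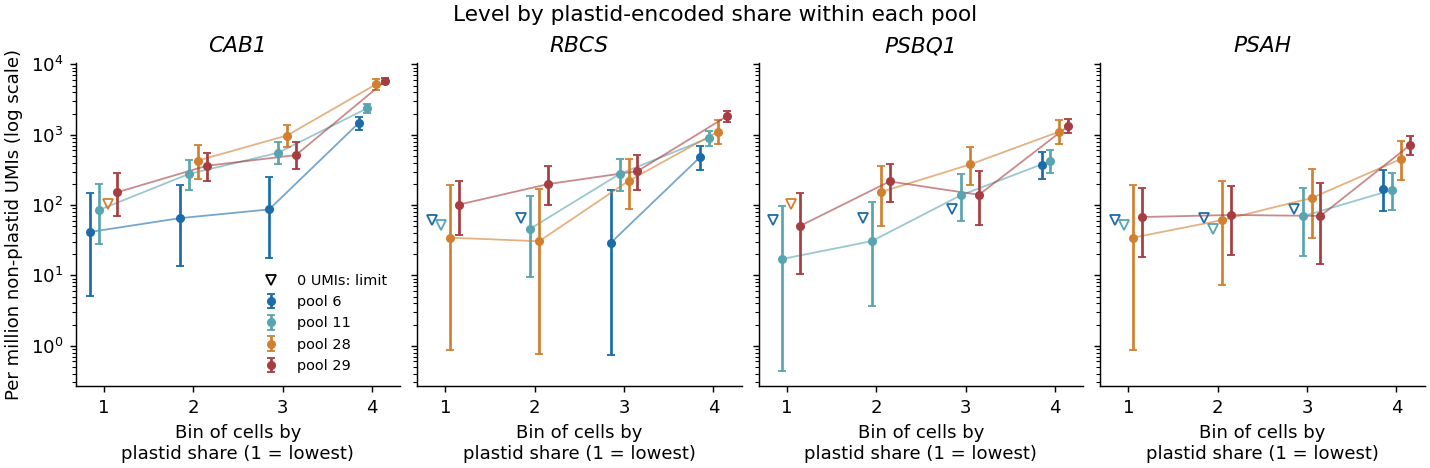
Level of 4 genes in CPM of non-plastid UMIs (log axis) in 4 bins of cells ranked by plastid-encoded share within each pool, with exact 95% Poisson intervals for counting error; open triangles mark limits at 3 counts where no UMI was seen, and lines join points with UMIs in adjacent bins. In all 4 pools and for all 4 genes the top bin is the highest, with CAB1 between 1455 and 5818 CPM there.

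At equal depth the top bin stood apart too. Among cells thinned to 1000 UMIs, CAB1 was seen in 13.2% (7 of 53), 17.2% (10 of 58), 22.4% (11 of 49) and 91.1% (51 of 56) of cells of bins 1 to 4. Before thinning the shares were 15.6%, 35.5%, 28.8% and 80.5%, at median depths of 1624, 2475, 1484 and 1844 UMIs. RBCS after thinning was seen in 0 of 53 cells of bin 1, which allows up to 5.66% (3 cells), and in 27 of 56 cells of the top bin (48.2%). No cell type known to lack these genes could be named, so background was not measured. Before thinning the bin 1 cells with CAB1 ran from 0 of 20 in pool 28 to 7 of 23 in pool 29. Whether these counts are background or low expression was not tested. RBCS had 31.3 UMIs per 100 of CAB1 in the top bin (26.9 to 36.3) and 37.1 in the other cells (27.0 to 50.3). PSBQ1 had 21.7 (18.2 to 25.8) in the top bin and 30.8 (21.9 to 42.7) in the other cells, and PSAH had 10.3 (7.99 to 13.0) and 13.8 (8.43 to 21.7). All 3 ratios were lower in the top bin, with intervals that overlapped. Whether transcripts carried over between cells contribute to the low counts was not tested.

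Cell by cell, the summed level of the 5 genes had Spearman correlations with the plastid share of 0.56, 0.66, 0.65 and 0.48 in pools 6, 11, 28 and 29 (55, 78, 79 and 91 cells). These describe cells that share a library, and many cells are tied at 0. The mean over pools was 0.57 for CAB1, 0.55 for RBCS, 0.55 for PSBQ1 and 0.43 for PSAH. With the photosynthesis genes of the plastid alone the mean for the sum was 0.62, and with the gene expression genes alone it was 0.53. In pool 29, cells with 0, 1, 2, 3, 4 and 5 of the nuclear genes had median plastid shares of 1.03%, 0.783%, 1.00%, 1.64%, 2.72% and 3.88% (42, 16, 9, 8, 12 and 4 cells). In pool 11 cells with 0, 1, 2, 3 and 4 of the genes had 1.22%, 1.57%, 1.65%, 10.6% and 7.40% (36, 15, 11, 5 and 11 cells). In both pools cells with at least 3 of the genes had the higher medians.

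The relation had exceptions in both directions. In the top bin 11 of 77 cells had no UMI of any of the 5 genes, and their median depth was 539 UMIs, against 2646 UMIs in the other 66 cells of that bin. Barcode 75 of pool 11 had the highest plastid share of the 11, with 11.2% among only 797 UMIs. The deepest of them was barcode 36 of pool 29, with 2144 UMIs and a plastid share of 1.68%. Some deep cells of the top bin had very few UMIs of the 5 genes. Barcode 4 of pool 6 had 1 among 7782 UMIs (plastid share 4.47%), and barcode 5 of pool 11 had 2 among 4409 UMIs (5.69%). In the other direction, 7 cells outside the top bin had at least 10 UMIs of the 5 genes, but not all were clear exceptions. Barcodes 25, 36 and 65 of pool 11 had plastid shares of 5.35%, 5.64% and 5.39%, and that pool's top bin began at 5.69%. Barcodes 31 and 47 of pool 29 and 46 of pool 28 were deep cells, with 8044, 7491 and 4984 UMIs. The remaining cell was barcode 38 of pool 28, the cell with the highest summed level, whose plastid share was 1.53%.

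**Figure D4:**
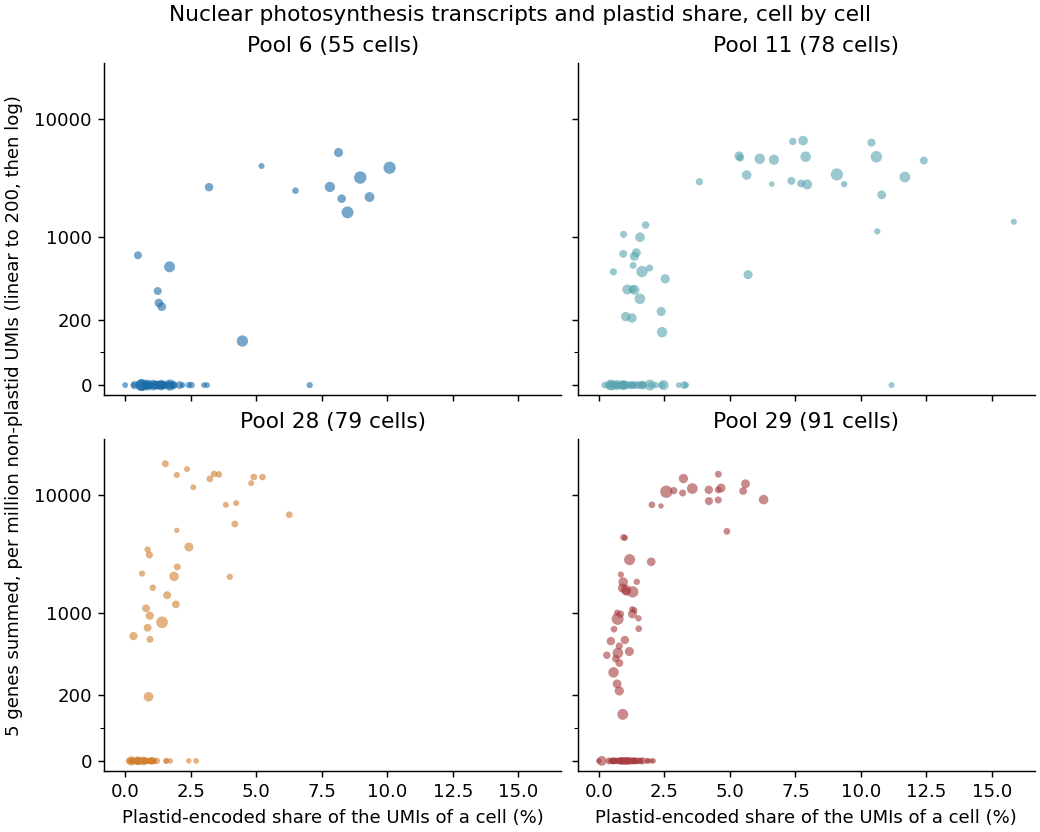
Each point is 1 cell, with its plastid-encoded share (%) on the horizontal axis and the summed level of the 5 genes in CPM of non-plastid UMIs on the vertical axis (linear up to 200, then logarithmic), and with point size growing with the cell's UMI total. Among cells of at least 1000 UMIs the highest is at 5226 CPM in pool 6 and at 6599 CPM in pool 11. A top-bin cell of pool 28 reaches 15152 CPM, and the highest cell of all, at 18454 CPM, has a plastid share of only 1.53%.

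The balance between nuclear and plastid transcripts differed between the pools. Per 100 plastid-encoded UMIs pools 6, 11, 28 and 29 had 2.38 (2.01 to 2.79), 3.67 (3.31 to 4.07), 16.2 (14.2 to 18.4) and 18.4 (17.0 to 20.0) UMIs of the 5 genes. The value for pool 29 was 7.75 times that of pool 6, a wider gap than in the levels of the 4 genes with at least 50 UMIs. It was present within the top bin too, with 2.94, 4.02, 22.8 and 24.8 per 100 in pools 6, 11, 28 and 29. Both sides of the ratio moved: in the top bin the plastid share of all UMIs was 7.78%, 8.80%, 3.37% and 3.80%, while the summed level was 2483, 3877, 7950 and 9790 CPM in the same pools. Of the 20 cells with the highest summed level among those with at least 1000 UMIs, 14 were from pool 29 and 6 from pool 28, and 19 of the 20 lay in the top bin of their pool. A difference in the anthers and one in library preparation cannot be told apart here.

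Barcode number also moved with the levels. CAB1 stood at 1301 CPM (1202 to 1405) in cells with barcodes 1 to 48 and at 837 CPM (737 to 946) in cells with barcodes 49 to 96, at median depths of 2759 and 1260 UMIs. Within pools the order held in 3 of them, with 676 against 268.4 CPM for pool 6, 977 against 698 CPM for pool 11 and 2106 against 1189 CPM for pool 29. In pool 28 it was the other way, with 1202 CPM in barcodes 1 to 48 and 1964 CPM in barcodes 49 to 96. What these barcode ranges stand for is not given in the labels.

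Features were then ranked by the mean of their within-pool Spearman correlations with the summed level of the 5 genes, among features with at least 50 UMIs. Each of the 5 genes above that limit was set against the sum of the others, and CAB1 came first of all features at 0.78, with RBCS 3rd at 0.72, PSBQ1 12th at 0.68 and PSAH 47th at 0.59. In cells thinned to 1000 UMIs, with features of at least 20 UMIs left, CAB1 had 0.66, RBCS 0.59 and PSBQ1 0.45. CAB1 then stood below Zm00001d039040 (0.80), psbC (0.68) and cemA (0.67), so its first place did not hold after thinning. Those 3 features were set against the sum of all 5 genes, CAB1 included, while CAB1 was set against the others only. Thinning also left out shallower cells, so the change of place cannot be ascribed to depth alone. PSAH gave no mean there, as it had no UMI left in pool 6. Of 3128 features that are neither these genes nor known by symbol as plastid-encoded, 5.95% reached 0.3, with a median of 0.03. All 25 plastid-encoded features tested reached it, from 0.32 for rps16 to 0.63 for ycf70. The features without a symbol closest to the genes were Zm00001d039040 at 0.72 (4937 CPM in the top bin and 367 CPM in the other cells) and Zm00001d005446 at 0.71. Of the 3128 features only 48 bear a symbol, so most features tested have no name here.

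Plastid-encoded features followed the nuclear genes to unequal degrees. The photosystem II antenna gene psbC had a mean correlation of 0.62 and stood at 11641 CPM in the top bin and 1253 CPM in the other cells. After it came cemA at 0.61, the ATP synthase gene atpI at 0.57, the photosystem I gene psaC at 0.55, psbH of photosystem II at 0.54, the RNA polymerase gene rpoC2 at 0.54, the ribosomal protein gene rps3 at 0.54, infA at 0.50 and psbB at 0.50. The 5 genes of the NADH dehydrogenase-like complex ranged from 0.37 to 0.48, and the 4 RNA polymerase genes from 0.38 to 0.54. The reaction centre gene psbA, with 328 UMIs, was among the lowest at 0.36. The order changed at equal depth. After thinning psbC (0.68), cemA (0.67), atpI (0.64) and rps3 (0.63) were high, psaC had 0.34, psbH 0.60, psbA 0.40 and rps16 0.49.

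**Figure D5:**
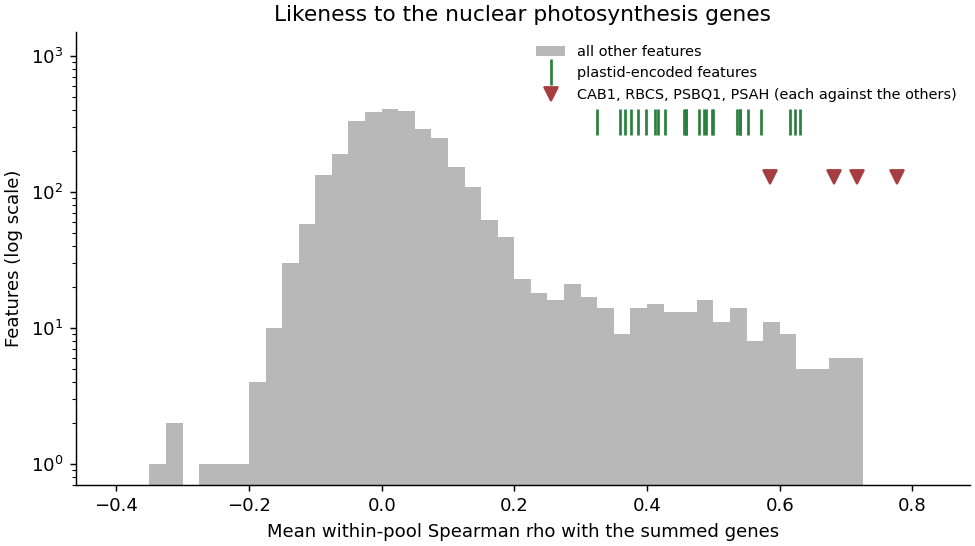
Histogram (log axis) of the mean within-pool Spearman correlation of each feature with the summed level of the 5 genes, for features with at least 50 UMIs. Green ticks are the 25 features known by symbol as plastid-encoded, and features without a symbol were not sorted by genome. Red triangles are CAB1, RBCS, PSBQ1 and PSAH, each set against the sum of the others. Most features lie near 0, with a median of 0.03, and the 4 genes lie between 0.59 and 0.78.

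Among symbol-bearing nuclear features 2 of 48 reached 0.3. The ribosomal protein gene RPL29 had the highest value, 0.49, and stood at 221.5 CPM in the top bin against 60.6 CPM elsewhere. Which ribosome its protein belongs to is not given in the gene table. Below 0.3 the highest were BX9 at 0.26, ALS1 at 0.18 and the tubulin gene TUBA3 at 0.15. At the low end ATPA stood at -0.31, MNB1B at -0.16, PPDK2 at -0.15, PRO5 at -0.11 and ROA2 at -0.09. The symbol ATPA occurs for both a nuclear and a plastid gene in the gene table, and it was left out of the plastid share.

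Other nuclear genes listed for photosynthesis were few by name. Of 75 symbols listed for photosystems, electron transport and carbon fixation, 3 matched a feature. The ferredoxin gene FDX2 had 7 UMIs, 6 of them in the top bin. FDX3, another ferredoxin gene, stood at 96.9 CPM in the top bin against 105.1 CPM elsewhere, a log2 fold of -0.11 whose interval included 0. PPDK2, a pyruvate orthophosphate dikinase gene, was lower in the top bin, at 73.8 CPM against 267.3 CPM (log2 fold -1.73), and lower in all 4 pools. The matched symbols of this list therefore did not all follow CAB1. Whether FDX3 and PPDK2 serve photosynthesis in these cells was not tested.

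Further genes with roles in chloroplasts were listed after the symbols had been seen, and 7 of them are given here. TPT, which encodes the triose phosphate translocator that exports the products of carbon fixation, had 22 of its 25 UMIs in the top bin, at 101.5 CPM against 5.35 CPM (log2 fold 2.86). It had no UMI in pool 28. CAF1, a splicing factor for plastid introns, had 8 of its 12 UMIs in the top bin. FTRC of the ferredoxin-thioredoxin system had 73.8 CPM in the top bin and 48.1 CPM in the other cells, and the thylakoid translocase gene TATC had 41.5 and 26.7 CPM. The plastid nucleic acid-binding protein gene WHY1 had 41.5 and 48.1 CPM, and the splicing factor genes CFM3 and CAF2 had 3 of 19 and 1 of 3 UMIs in the top bin. The intervals of FTRC, TATC, WHY1, CFM3 and CAF2 included no difference.

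Of the symbol-bearing genes, 2 more were chosen after their values were seen. C2, the chalcone synthase gene of flavonoid synthesis, stood at 64.6 CPM in the top bin against 1030 CPM elsewhere, a log2 fold of -3.80. The glycolytic gene GAPC3 had 9.25% of its UMIs in the top bin, a log2 fold of -1.85. Of 26 cells with at least 5 C2 UMIs, 3 had at least 5 CAB1 UMIs (11.5%, 2.45% to 30.2%), against 54 of the other cells (19.5%, 15.0% to 24.7%), and the intervals overlapped. None of 15 cells with at least 5 GAPC3 UMIs had 5 of CAB1, which allows a share of up to 20.0%, against 57 of the other cells (19.8%). At a limit of 1 UMI the order turned, with CAB1 in 55.8% of 77 cells with C2 and in 35.0% of the cells without, at median depths of 3195 and 1495 UMIs.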

How the data were processed

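For each of 303 cells the authors deposited UMI counts per feature, not normalized. The submitters' processing notes name HISAT2 and the build B73 RefGen_v4. No counter, annotation or filter on cells is named in the sources used here. The libraries followed a modified CEL-Seq2 protocol, per the labels' protocols. Cell totals ran from 203 to 9934 UMIs.

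From these counts UMIs were summed over all cells, per pool and per bin of plastid-encoded share, and scaled to 1000000 (CPM). The gene table (assembly Zm-B73-REFERENCE-NAM-5.0) was used for names only, and all 5 genes were found in it. Intervals are exact (Poisson, Clopper-Pearson) from scipy 1.17.1, and the limit for a count of 0 is 3 counts. Log2 folds have 10 CPM added to both sides. Intervals of a fold, where one is said to include no difference, come from the ratio without that addition. Cells were thinned to 1000 UMIs with a fixed seed. Correlations are Spearman's, within pools, over features with at least 50 UMIs. Besides the 5 genes, named features are the 10 symbol-bearing ones most like them, the 5 highest and 5 lowest outside the plastid, 2 without a symbol, and the listed photosynthesis genes. A few values under these rules are not reported here. The genes, lists and rules were chosen with earlier results of these data known. No doublets were removed, and no cells were clustered.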

Additional observations from a re-analysis of the deposited data

How the results depend on the processing

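The share of RBCS cells with CAB1, 92.2%, was tried under the cell filter, the omission of each pool, thinning and both barcode ranges. It stayed within its counting interval of 83.8% to 97.1% in all of these, a wide interval that rests on 77 cells. The share was 100% when at least 2 UMIs of each gene were asked for. The summary values have intervals of unlike kind and width, so they cannot be ranked by how far they moved. The CAB1 level of 1125 CPM became 1331 CPM without pool 6, 1252 CPM without pool 11 and 858 CPM without pool 29. It was 1301 CPM with barcodes 1 to 48, 837 CPM with barcodes 49 to 96 and 1354 CPM with the 20 most abundant features out of the denominator. Without the 10 cells with the most CAB1 UMIs, a setting added after seeing the data, it was 794 CPM. The CAB1 log2 fold of 3.55 became 3.17 without pool 29, 3.15 with barcodes 1 to 48, 3.87 with a wider top bin of 1 in 3 cells, 3.90 with plastid photosynthesis genes only and 3.87 with the 20 most abundant features left out, the last also added after seeing the data. The mean correlation of 0.59 with the plastid share became 0.67 after thinning, 0.68 with barcodes 1 to 48 and 0.69 as Pearson's r on a log scale. The cause of these shifts was not tested. The folds of RBCS, PSAH and PSBQ1 stayed within their intervals in 43 of 45 further values and ranged from 2.37 to 3.72, while their CPM did so in 16 of 30. The fold of RCA1 ranged from -0.09 (without pool 29) to 2.03, so its direction is not established. With features of at least 20 UMIs, 3 of the 5 highest and 5 of the 5 lowest nuclear symbols were kept. No paired analysis was possible because all cells form 1 group. A count of 0 in a shallow cell says little, and RCA1 rests on 11 UMIs in all.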
